A study of Homo sapiens with 12 samples.

Results

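The mitochondrial genome codes for 37 genes in the count table, of which 6 are described here, the 2 ribosomal RNAs MT-RNR1 (12S) and MT-RNR2 (16S) and the 4 transfer RNAs MT-TL1, MT-TN, MT-TC and MT-TY. They are 6 of 58735 genes in all, and all 6 were among the 17729 genes that passed the low-count filter. The 6 were chosen by gene name from a list drawn up after the counts and the CEP fold changes of mitochondrial genes in these libraries had been seen, so their CEP values below are descriptions and the number of them that changed supports nothing by itself. The list was labelled as the detected tRNAs, but the counts go against that label. Of the 22 mitochondrial tRNA genes, 9 passed the filter, and the 5 outside the list include MT-TP, whose 4885 counts over the 12 libraries exceed the 3299 of MT-TN. MT-TR and MT-TH had 496 and 492 counts, above the 374 of the listed MT-TY, and MT-TG and MT-TS2 had 156 and 119. The 4 tRNAs are therefore called the listed tRNAs, and the other 5 are given beside them.

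RNA-Seq was performed on HEK293T cells, a human embryonic kidney line of wild-type genotype, in 4 groups of 3 libraries each. The DMSO group received vehicle. For the CEP group the probe was AHL-Pu-1, a purine with a cysteine-reactive group and a click handle, given at 25 µM for 1 h. The 4SU group received 4-thiouridine, a photoreactive uridine analog taken up into new RNA, at 100 µM for 16 h, and the CEP+4SU group received both. The sample labels give the probe dose in mM and the design text in µM, and they carry 1 protocol text with UV crosslinking for all 12 libraries, so whether cells without 4SU were irradiated is not stated. RNA was selected on poly-T beads before library preparation. The replicates are called independent, and the study's reporting form says that its cell experiments were in general repeated on different days, without saying which library comes from which day or culture.

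Mitochondrial DNA is transcribed from both strands as long polycistronic precursors, in which tRNAs lie between the rRNA and mRNA genes and mark the points of cleavage. RNase P cuts at the 5′ end of a tRNA and ELAC2 at its 3′ end, after which TRNT1 adds the terminal CCA and a cognate synthetase charges the tRNA. The 12S and 16S rRNAs form the core of the small and large subunits of the mitochondrial ribosome and carry short adenine tails, whereas mature tRNAs carry none, so poly-T selection captures only part of either class. Counts on these genes cannot tell a mature RNA from a precursor or a processing intermediate. Nor can they tell less RNA in every cell from less in some of the cells. Scaled to library size, they also cannot tell less of an RNA from more of the other RNAs.

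The tRNA sequences are shown because the 4 listed tRNAs and MT-TP are compared throughout. They are GENCODE 29 transcripts on GRCh38, written 5′ to 3′ as DNA with the anticodon in capitals.
MT-TL1: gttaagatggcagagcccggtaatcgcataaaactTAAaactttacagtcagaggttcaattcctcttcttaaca
MT-TN: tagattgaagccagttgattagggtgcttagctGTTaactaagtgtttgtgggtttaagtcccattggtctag
MT-TC: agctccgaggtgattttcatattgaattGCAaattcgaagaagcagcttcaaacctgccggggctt
MT-TY: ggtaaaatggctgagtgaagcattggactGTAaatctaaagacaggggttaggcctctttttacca
MT-TP: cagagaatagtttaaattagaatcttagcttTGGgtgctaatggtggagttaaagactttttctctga

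MT-TL1 reads leucine codons of the UUR type and lies on the plus strand at positions 3230 to 3304 of the mitochondrial chromosome. The other 3 lie side by side on the minus strand, MT-TN (asparagine) at 5657 to 5729, MT-TC (cysteine) at 5761 to 5826 and MT-TY (tyrosine) at 5826 to 5891. MT-TC and MT-TY share 1 base, and 31 bases separate MT-TN from MT-TC. MT-TP (proline), also on the minus strand, lies far from them at 15956 to 16023. The listed tRNAs are 66 to 75 bases long, shorter than a sequencing read. Thymine, the position that 4SU can occupy in the RNA, makes up 37.0% of MT-TN, 28.0% of MT-TL1 and 27.3% of MT-TC and of MT-TY, against 36.8% of MT-TP.

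MT-RNR1 occupies positions 648 to 1601 and MT-RNR2 positions 1671 to 3229, both on the plus strand, with MT-TV between them and MT-TF before MT-RNR1. There is no gap between MT-RNR2 and MT-TL1, as the 20 bases on either side of their junction at 3210 to 3249 show, with the tRNA in capitals.
Junction: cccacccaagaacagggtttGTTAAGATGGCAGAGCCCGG

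Total counts on genes were 16569114 to 24644734 per library, and mitochondrial genes took 0.967% to 1.65% of them. CEP replicate 2 and CEP+4SU replicate 2 stood apart, with 22230 and 22627 genes detected against 24376 to 25869 in the other 10 libraries, and results are given with and without them where that changes a call. The 9 kidney epithelial and progenitor markers summed to 497 to 563 CPM (counts scaled to library size) in every library with 8 of them detected throughout, the 4 neural markers to 333 to 373 CPM, the 7 fibroblast and endothelial markers to 35.1 to 51.4 CPM, and the 5 blood cell markers to 1.65 to 6.51 CPM with 2 at 0. The nuclear copies of the 16S gene, which could take its reads, had 0 to 12 counts per library and none was tested. Each test below is, unless stated otherwise, edgeR's quasi-likelihood test in 1 fit of all 12 libraries, called the main fit. Benjamini-Hochberg adjustment was over the 17729 genes, with a threshold of 0.05. Its p-values judge a difference between groups against the spread between libraries within groups.

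Compared per gene length as FPKM (fragments per kilobase of gene and library size), the rRNAs had the highest means of the 6 in DMSO cells. Whether FPKM puts genes shorter than a read on the same footing as the rRNAs was not tested. MT-RNR2 was at 933 ± 89.0 FPKM and MT-RNR1 at 913 ± 469 (SD, n = 3 here and for all group means), which do not differ beyond their spread. MT-TC followed at 411 ± 58.2 FPKM (368 to 477), a range that holds the lowest MT-RNR1 library (371). MT-TN was at 233 ± 34.3 FPKM, without overlap with MT-TC. MT-TL1 was at 51.1 ± 10.4 FPKM and MT-TY at 35.8 ± 4.75, and the lowest MT-TL1 library (39.1) lay below the highest MT-TY library (39.7). The unlisted MT-TP was at 360 ± 29.7 FPKM, within the spread of MT-TC, and MT-TR and MT-TH at 25.6 ± 8.45 and 26.1 ± 7.73. The remaining 13 tRNA genes did not pass the filter, among them MT-TF with 6 counts in all and MT-TV with 36, which flank MT-RNR1, MT-TA with 11 next to MT-TN, and MT-TW with 0.

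**Figure D1:**
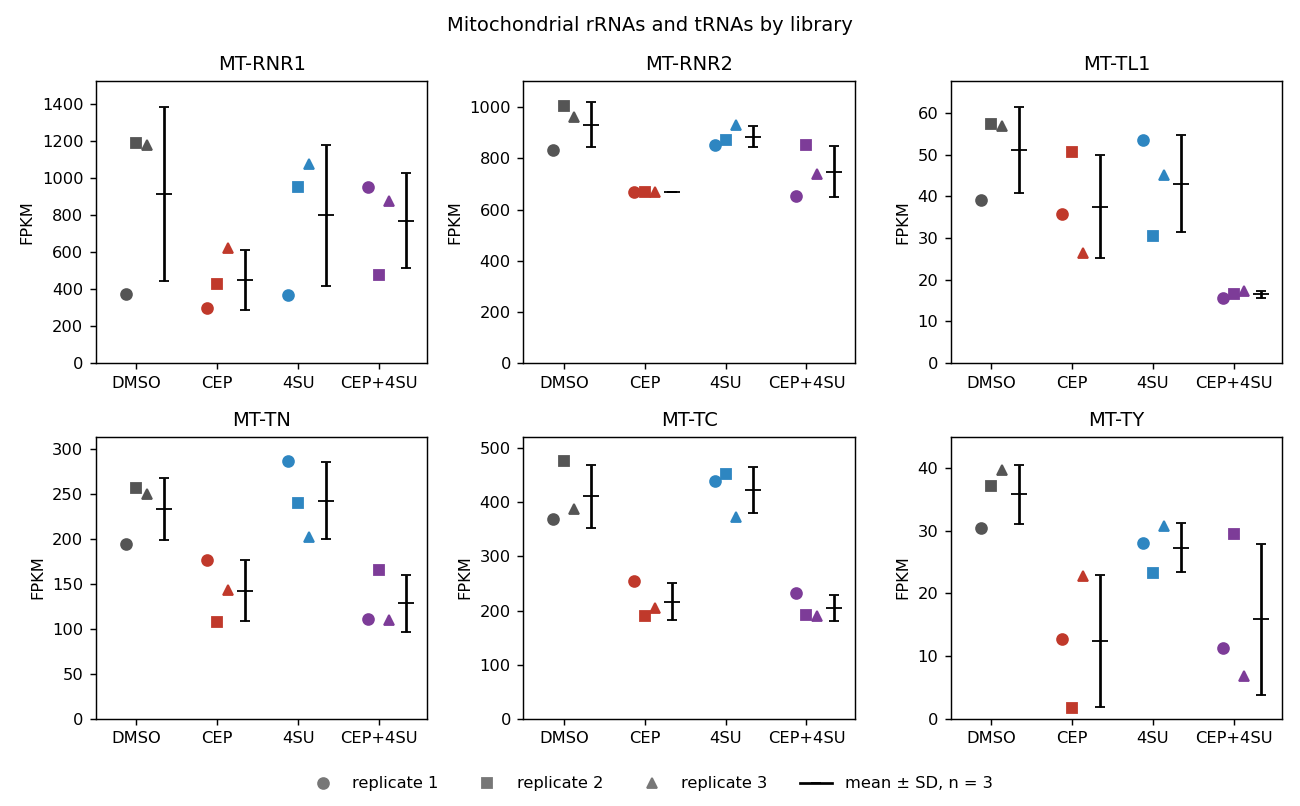
Deposited FPKM of the 6 genes (vertical axes from 0, a separate scale for each gene) in the 4 groups, with a symbol for each replicate and the mean ± SD (n = 3) beside each group. MT-TC and MT-TN are low in all 6 libraries with CEP, MT-TL1 is lowest in CEP+4SU, the 3 CEP libraries of MT-RNR2 nearly coincide, and MT-RNR1 varies most within groups.

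MT-RNR2, the 16S rRNA of the large subunit, was lower with CEP. Its level was 1305, 1575 and 1514 CPM in the DMSO libraries and 1056, 1053 and 1051 CPM in the CEP libraries. The CEP libraries lay together below all DMSO libraries, a separation whose share over all genes tested was not counted. The fitted level with CEP was 71.9% of DMSO, a log2 fold change of -0.48 (SE 0.086, adjusted p = 0.0462, edgeR). In cells labelled with 4SU alone, MT-RNR2 was at 1334, 1363 and 1452 CPM, within the DMSO range (log2 fold change -0.08, adjusted p = 0.892, edgeR). With both compounds it was at 1026, 1339 and 1165 CPM, of which replicate 2, a library with few detected genes, overlaps the DMSO and 4SU libraries. The difference of CEP+4SU from DMSO was -0.32 (SE 0.086, adjusted p = 0.0645, edgeR) and passed without that replicate (-0.42, adjusted p = 0.0314), without both libraries of few detected genes (-0.42, adjusted p = 0.00571) and with DESeq2 (adjusted p = 0.0142). Averaged over cells with and without 4SU, CEP changed MT-RNR2 by -0.35 (SE 0.061, adjusted p = 0.0115, edgeR).

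The MT-RNR2 calls depended on single libraries and on the scale. The call of CEP against DMSO was lost without DMSO replicate 2 (adjusted p = 0.357), DMSO replicate 3 (0.249), CEP replicate 2 (0.115) or CEP replicate 3 (0.265), and the averaged call without DMSO replicate 2 (0.0544). Without both libraries of few detected genes MT-RNR2 changed by -0.41 (adjusted p = 7.98e-05, edgeR, CEP averaged over 4SU). Relative to mitochondrial mRNA, the averaged change was -0.13 (adjusted p = 0.500, edgeR), on a scale where the median of all genes was 0.22. The count of MT-RNR2 was 9.14% to 12.99% of the summed mitochondrial mRNA counts with CEP and 10.7% to 13.04% without, and these ranges overlap.

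MT-RNR1, the 12S rRNA of the small subunit, differed from the 16S rRNA in how much it varied among replicates. It was at 356, 1141 and 1138 CPM in DMSO, 289, 409 and 596 CPM with CEP, 350, 911 and 1029 CPM with 4SU, and 916, 457 and 843 CPM with both. All groups overlap, with the lowest library being replicate 1 of DMSO, CEP and 4SU but replicate 2 of CEP+4SU. The coefficient of variation of MT-RNR1 in DMSO was 51.5%, against 9.66% for MT-RNR2, and its biological coefficient of variation in the fit was 31.8%, against 8.32% for MT-RNR2 and 11.4% in common over genes. No comparison of MT-RNR1 passed the threshold in this fit. The change was -1.02 for CEP against DMSO (SE 0.38, adjusted p = 0.196, edgeR), -0.25 for CEP+4SU against DMSO (SE 0.38, adjusted p = 0.744) and -0.54 for CEP averaged over 4SU (SE 0.27, adjusted p = 0.225). Relative to mitochondrial mRNA, MT-RNR1 passed for CEP against DMSO (-0.54, SE 0.17, adjusted p = 0.0236, edgeR), on a scale where the median of all genes was 0.36. On that scale 3378 of 17729 genes passed in this comparison, so nothing is read from the call. Without both libraries of few detected genes the averaged change of MT-RNR1 was -0.39 (adjusted p = 0.469). Without the low-count filter MT-RNR1 passed for CEP against DMSO (-1.03, SE 0.079, adjusted p = 2.3e-34, edgeR). In that setting it also passed averaged over 4SU (-0.54, SE 0.056, adjusted p = 6.9e-19) and for the interaction (0.98, SE 0.11, adjusted p = 1.4e-14). There 662, 1448 and 15 of 35634 genes passed in these comparisons. Why its standard errors were smaller in that setting was not tested.

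Per base of gene length, the ratio of 12S to 16S counts ran from 0.428 to 1.46 over the 12 libraries. It was 0.446, 1.18 and 1.23 in DMSO and 0.428, 1.09 and 1.16 with 4SU, with 1 low library in each group. With CEP it was 0.448, 0.635 and 0.928, and with both compounds 1.46, 0.558 and 1.18. All 4 groups overlap in this ratio, and libraries of the same treatment differed in it although both rRNAs come from the same precursor.

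**Figure D2:**
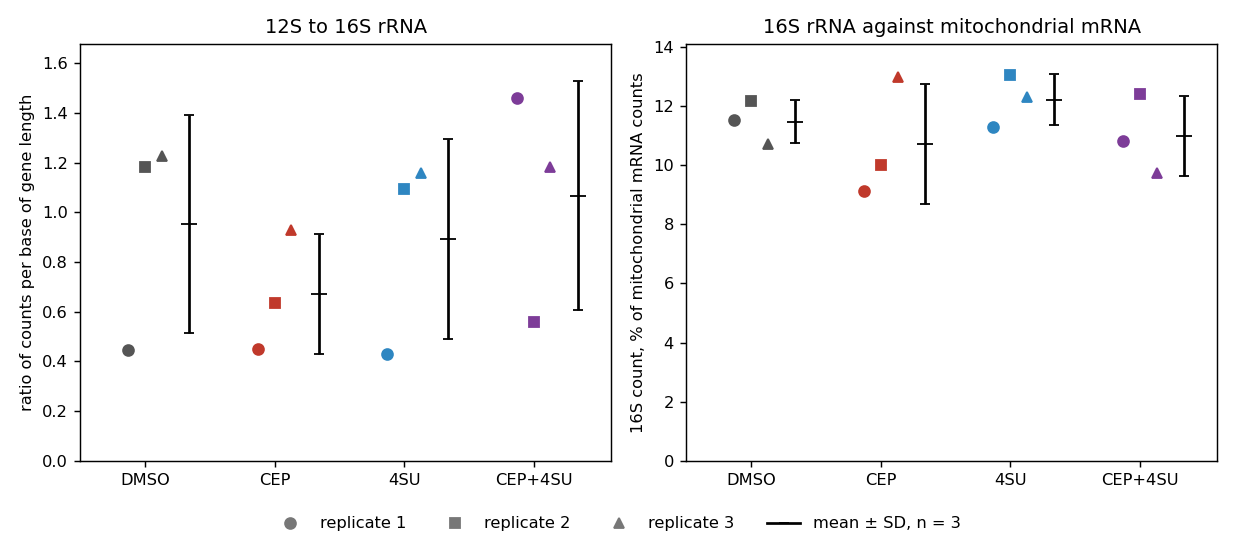
Left, the ratio of 12S to 16S rRNA counts per base of gene length, and right, the 16S count as a percentage of mitochondrial mRNA counts, for each library by group with mean ± SD (n = 3). The 12S to 16S ratio ranges from 0.428 to 1.46 with overlap of all groups, whereas the 16S share of mRNA lies between 9.14% and 13.04%.

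Of the 6 genes, MT-TC, the cysteine tRNA, showed the steadiest difference with CEP. It was at 24.4, 31.7 and 25.8 CPM in DMSO (556 to 644 counts), 17.1, 12.6 and 13.6 CPM with CEP, 29.1, 30.0 and 24.7 CPM with 4SU, and 15.4, 12.7 and 12.6 CPM with both. All 6 libraries with CEP lay below all 6 without. CEP brought MT-TC to 52.9% of DMSO (log2 fold change -0.92, SE 0.14, adjusted p = 0.00905, edgeR). In 4SU-labelled cells it brought MT-TC to 48.6% of 4SU alone (-1.04, SE 0.14, adjusted p = 0.00432, edgeR). This comparison shares no library with the first, but both come from the main fit. MT-TC was also listed with its CEP fold changes known, so nothing is read from the likeness of these changes. Averaged over 4SU the change was -0.98 (SE 0.099, adjusted p = 3.6e-05, edgeR), and 4SU alone gave 0.03 (SE 0.13, adjusted p = 0.978).

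The averaged MT-TC call held in all 25 alternatives tried, with log2 fold changes of -1.05 to -0.75 and adjusted p of at most 0.00321. The separate calls rested on fewer libraries. That against DMSO was lost without DMSO replicate 2 (adjusted p = 0.108), CEP replicate 2 (0.0528) or CEP replicate 3 (0.0988), and that against 4SU without 4SU replicate 1 (0.0638) or CEP+4SU replicate 3 (0.0566). Without both libraries of few detected genes, MT-TC changed by -0.92 (adjusted p = 9.10e-06, edgeR, CEP averaged over 4SU).

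MT-TN, the asparagine tRNA next to MT-TC on the same strand, moved like it. It was at 14.2, 18.8 and 18.4 CPM in DMSO, 13.03, 7.94 and 10.5 CPM with CEP, 21.0, 17.5 and 14.7 CPM with 4SU, and 8.16, 12.2 and 8.08 CPM with both. Again all 6 libraries with CEP lay below all 6 without, although the highest CEP library (13.03) came close to the lowest DMSO library (14.2). Such a separation over 6 and 6 libraries was seen for 91 of the 17729 genes tested, or 0.513%, and for MT-TC and MT-TN among the 6. The change was -0.71 for CEP against DMSO (SE 0.19, adjusted p = 0.173, edgeR), -0.91 for CEP+4SU against 4SU (SE 0.19, adjusted p = 0.214) and -0.81 averaged over 4SU (SE 0.14, adjusted p = 0.0114).

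Against DMSO, MT-TN with both compounds was at 55.2% (-0.86, SE 0.19, adjusted p = 0.0361, edgeR). This call was lost without DMSO replicate 1 (0.0944), 2 (0.139) or 3 (0.134) or CEP+4SU replicate 3 (0.0982), all adjusted p. Without CEP replicate 1, MT-TN passed for CEP against DMSO (-0.88, adjusted p = 0.0224, edgeR), and without CEP+4SU replicate 2 for CEP+4SU against 4SU (-1.14, adjusted p = 0.0365). DESeq2 called MT-TN in both of these comparisons (adjusted p = 0.0429 and 0.0211). Without both libraries of few detected genes its averaged change was -0.84 (adjusted p = 0.000308, edgeR), and its change for CEP+4SU against 4SU was -1.14 (adjusted p = 0.00214).

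MT-TY, the tyrosine tRNA at the end of this cluster, did not pass in any comparison of the main fit. Without the low-count filter it passed for CEP against DMSO (-1.48, adjusted p = 0.0266, edgeR) and CEP averaged over 4SU (-1.13, adjusted p = 0.00744). That setting called 662 and 1448 of 35634 genes in these comparisons. It had 46, 50 and 64 counts in DMSO, 16, 2 and 32 with CEP, 35, 26 and 39 with 4SU, and 14, 41 and 9 with both. The CEP libraries and the CEP+4SU libraries lay below the DMSO libraries in CPM (0.118 to 1.52 and 0.451 to 1.96 against 2.02 to 2.65). The highest CEP+4SU value came close to the lowest DMSO value. How many of all genes tested separate like this between 2 groups was not counted, so the separation is a description. The 2 counts in CEP replicate 2 and the 41 in CEP+4SU replicate 2, the libraries with few detected genes, were at the extremes. The averaged change was -1.12 (SE 0.38, adjusted p = 0.0972, edgeR) and passed without these 2 libraries (-1.29, adjusted p = 0.0479). CEP+4SU against DMSO was -1.16 (SE 0.53, adjusted p = 0.211, edgeR) and passed without them (-1.98, SE 0.43, adjusted p = 0.0229).

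MT-TL1, the leucine tRNA behind the 16S rRNA, was lowest where both compounds were given. It had 67, 88 and 104 counts in DMSO, 51, 65 and 42 with CEP, 76, 39 and 65 with 4SU, and 22, 26 and 26 with both. In CPM, CEP+4SU (1.18, 1.24 and 1.30) lay below every other library, of which the lowest was CEP replicate 3 at 1.99. How many of all genes tested show such a separation was not counted, so it is a description. With both compounds MT-TL1 was at 32.3% of DMSO (-1.63, SE 0.30, adjusted p = 0.0190, edgeR) and at 38.5% of 4SU alone (-1.38, SE 0.31, adjusted p = 0.256). CEP alone gave -0.45 (SE 0.28, adjusted p = 0.383, edgeR) and 4SU alone -0.25 (SE 0.28, adjusted p = 0.897). The interaction of CEP with 4SU was -0.93 (SE 0.42, unadjusted p = 0.0374, adjusted p = 1.00, edgeR), so a larger CEP difference in labelled cells was not established.

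The MT-TL1 call against DMSO was lost without DMSO replicate 2 (adjusted p = 0.1005), DMSO replicate 3 (0.0931), CEP+4SU replicate 2 (0.0636) or CEP+4SU replicate 3 (0.0631). Its change averaged over 4SU was -0.91 (SE 0.21, adjusted p = 0.0576, edgeR), and it passed without CEP replicate 1 (0.0202), CEP replicate 2 (0.0355) or CEP+4SU replicate 1 (0.0354), and without both libraries of few detected genes (-1.05, adjusted p = 0.0296). Set against the neighbouring mRNA, MT-TL1 had 3.04 to 3.49 counts per 1000 counts of MT-ND1 with both compounds and 4.84 to 10.7 in the other 9 libraries, without overlap. MT-ND1 was itself lower with CEP, and MT-TL1 was listed with the CEP values known. The ratio is therefore a description, and nothing is read from its separation.

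Over the 6 genes, all had lower estimates with CEP in both 4SU states, but that of MT-RNR1 in labelled cells was small beside its standard error. The change of MT-RNR1 for CEP+4SU against 4SU was -0.05 (SE 0.38, adjusted p = 0.975, edgeR), so a difference was neither shown nor excluded. That estimate was lower in 12 of 20 alternatives and was 0.20 without both libraries of few detected genes. For CEP against DMSO, MT-TC and MT-RNR2 passed, 2 of 6, where 10 of 17729 genes (0.0564%) passed in either direction and 7 (0.0395%) were lower. For CEP+4SU against 4SU, 1 of 6 (MT-TC) passed, where 8 genes (0.0451%) passed and 6 (0.0338%) were lower. For CEP+4SU against DMSO, 3 of 6 (MT-TL1, MT-TC and MT-TN) were lower, where 290 genes (1.64%) passed and 176 (0.993%) were lower. Averaged over 4SU, CEP lowered 3 of 6 (MT-TC, MT-TN and MT-RNR2), where 49 genes (0.276%) passed and 31 (0.175%) were lower. As the 6 were listed with these CEP values known, nothing is read from the shares, and the comparisons with DMSO share its 3 libraries. The medians of the log2 fold changes of all genes tested were between -0.00649 and 0.00304 in these comparisons.

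4SU alone gave no call among the 6 against DMSO, where 1 gene (0.00564%) passed, and none had an unadjusted p under 0.05. Averaged over CEP, 99 genes (0.558%) passed and none of the 6, of which MT-TL1 had an unadjusted p of 0.00272 (-0.71, SE 0.21, adjusted p = 0.126, edgeR). For the interaction, 0 genes (0%) passed with edgeR and 0 with DESeq2, while 467 genes had an unadjusted p under 0.05, MT-TL1 among them.

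**Figure D3:**
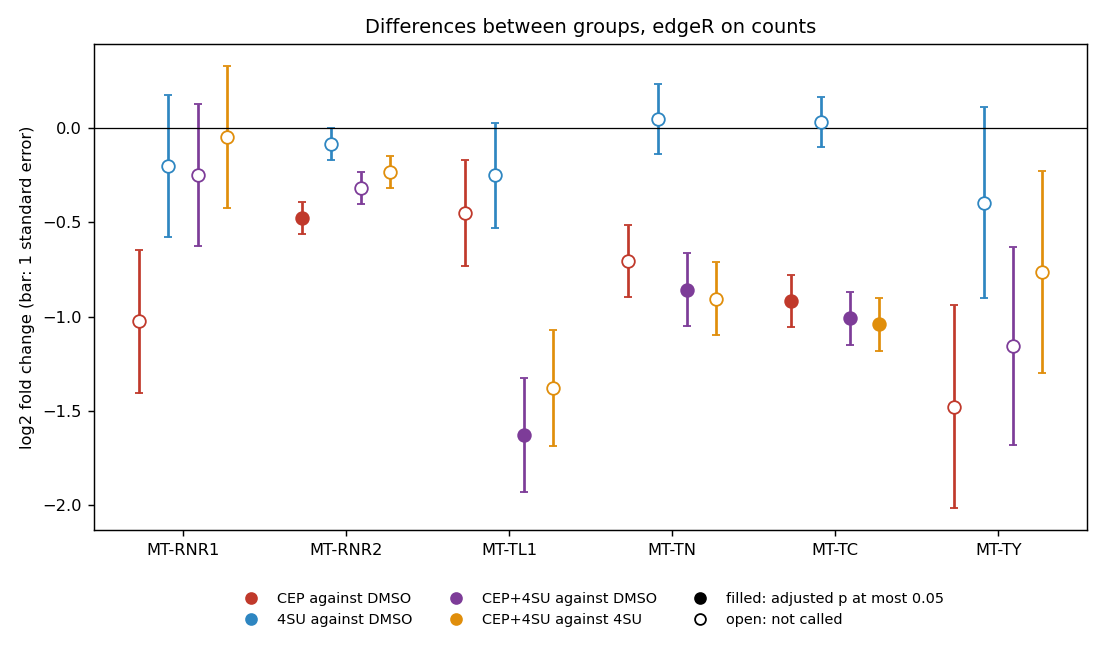
Log2 fold changes of the 6 genes (edgeR, bars 1 standard error) for CEP, 4SU and CEP+4SU against DMSO and CEP+4SU against 4SU, with filled points where the adjusted p was at most 0.05. MT-TC lies between -0.92 and -1.04 in the 3 contrasts with CEP and near 0 for 4SU, and MT-TL1 is lowest at -1.63 for CEP+4SU against DMSO.

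The genes beside the listed ones were compared in genome order. MT-ND1, a complex I subunit gene between MT-TL1 and MT-TI, changed with CEP by -0.67 (SE 0.10, adjusted p = 0.00465, edgeR, averaged over 4SU). MT-ND2, a complex I subunit gene on the plus strand at lower positions than the minus-strand cluster, changed by -0.74 (SE 0.075, adjusted p = 3.6e-05). MT-CO1, the cytochrome c oxidase gene on the other side of the cluster, gave -0.02 (SE 0.084, adjusted p = 0.910). Of the 13 mitochondrial mRNAs, MT-ND1 and MT-ND2 were called lower and none higher, with a list median of -0.21. The count of MT-TC per 1000 counts of MT-ND2 was 22.1 to 31.4 in libraries with CEP and 24.2 to 37.1 without, which overlap.

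The 5 tRNAs outside the list did not pass in any comparison. MT-TP was at 24.7, 22.6 and 26.8 CPM in the DMSO libraries, 23.0, 18.5 and 17.0 in the CEP libraries, 21.2, 18.9 and 18.3 in the 4SU libraries, and 17.1, 16.0 and 19.4 where both were given. It overlapped between libraries with and without CEP (16.0 to 23.0 against 18.3 to 26.8 CPM), and its averaged change was -0.25 (SE 0.091, adjusted p = 0.113, edgeR). The averaged changes of MT-TR (0.24), MT-TH (-0.10), MT-TS2 (-0.28) and MT-TG (0.94, SE 0.35, adjusted p = 0.119) lay on both sides of 0. The ratio of MT-TC to MT-TP counts was 0.991, 1.40 and 0.964 in DMSO and 1.38, 1.59 and 1.35 with 4SU, and 0.743, 0.679 and 0.804 with CEP and 0.900, 0.794 and 0.649 with both, without overlap between libraries with and without CEP. The ratio of MT-TN to MT-TP overlapped, at 0.416 to 0.758 with CEP and 0.578 to 0.993 without. The 4 listed tRNAs took 45.4% to 55.2% of all mitochondrial tRNA counts with CEP and 60.5% to 66.6% without. The list was drawn up with the CEP fold changes known, so this share can be lower by that choice alone. MT-TP was named after its values were seen. The share and the ratios are therefore descriptions, and nothing is read from their separation.

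**Figure D4:**
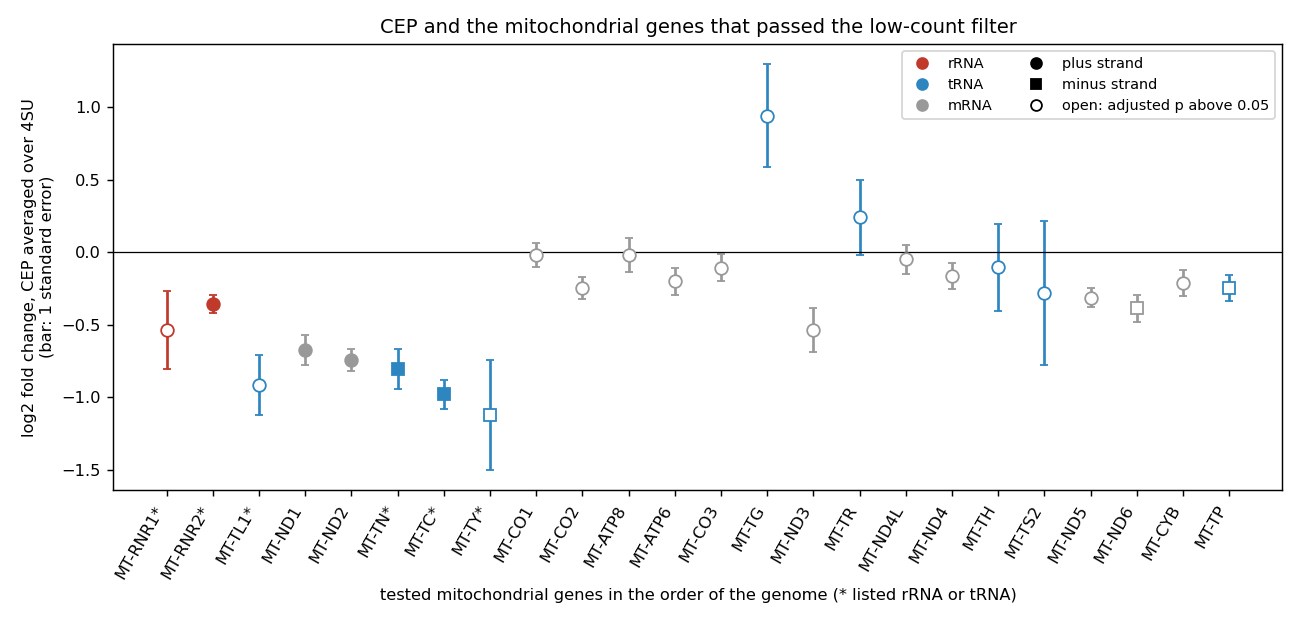
Log2 fold change with CEP, averaged over 4SU (edgeR, bars 1 standard error), of the 24 mitochondrial genes that passed the filter, in genome order, with squares for the minus strand, asterisks for the 6 listed genes and open points above an adjusted p of 0.05. The listed tRNAs lie between -0.81 and -1.12 beside MT-ND1 (-0.67) and MT-ND2 (-0.74), whereas MT-CO1 is at -0.02 and MT-TG at 0.94.

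The level of nuclear RNAs without a poly(A) tail is given as a measure of what the poly-T beads retained. These RNAs, of which 25 of 28 listed were in the table, summed to 74.5, 79.9 and 120 CPM in DMSO, 97.6, 81.7 and 96.0 with 4SU, 75.6, 11.5 and 75.3 with CEP, and 76.0, 41.3 and 67.7 with both. The lowest values were CEP replicate 2 and CEP+4SU replicate 2, the libraries with few detected genes, and the other 4 libraries with CEP were at 67.7 to 76.0 CPM. Of 4 such RNAs tested, RNA5-8SN2, a 5.8S rRNA copy, was called lower for CEP+4SU against DMSO (-1.33, SE 0.28, adjusted p = 0.0301, edgeR), and 0 of 4 passed for CEP averaged over 4SU. All 4 had lower estimates there, from -0.68 to -0.33 with a median of -0.61, which lies between the changes of MT-RNR2 (-0.35) and MT-TN (-0.81). Without the 2 libraries in which these RNAs were lowest, the averaged changes of MT-TC and MT-TN were -0.92 and -0.84, against -0.98 and -0.81 with them. The other 4 libraries with CEP (67.7 to 76.0 CPM) still met only the low end of the range without CEP (74.5 to 120 CPM). Leaving out 2 libraries therefore does not separate CEP from a lower level of RNAs without a tail. The part of poly-T capture in the lower tRNA and rRNA counts was not tested.

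**Figure D5:**
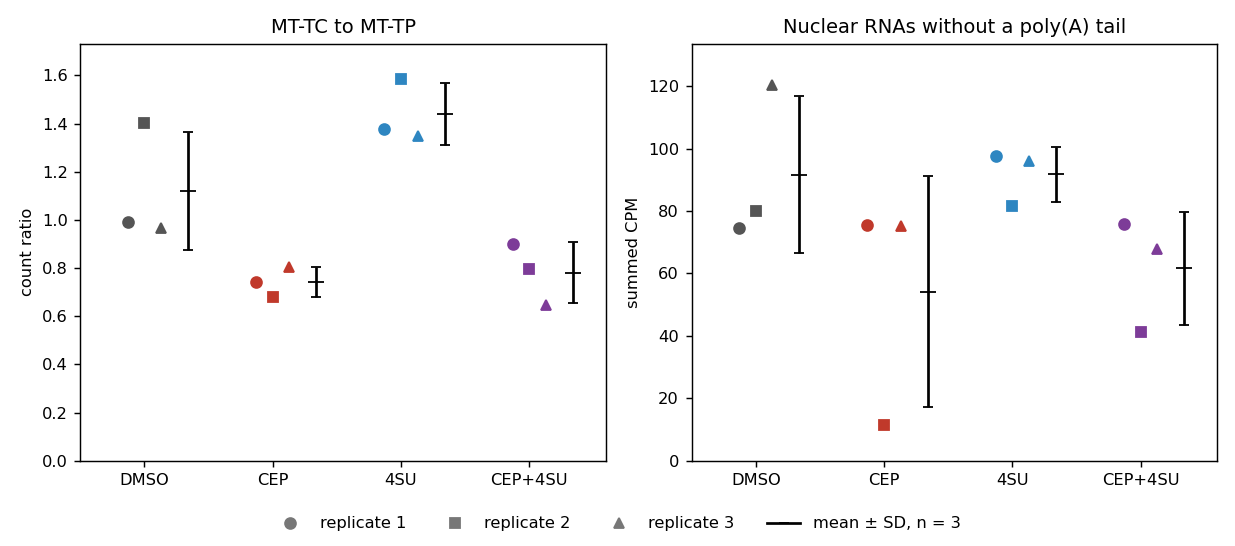
Left, the count ratio of MT-TC to MT-TP, and right, the summed CPM of nuclear RNAs without a poly(A) tail, for each library by group with mean ± SD (n = 3). The MT-TC to MT-TP ratio is 0.649 to 0.900 in libraries with CEP and 0.964 to 1.59 without, and the RNAs without a tail are lowest in replicate 2 of CEP (11.5 CPM) and of CEP+4SU (41.3 CPM).

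Among nuclear genes that process or use these RNAs, DDX28 alone passed a test in the comparisons made. Of 7 genes for tRNA end cleavage and CCA addition, 0 passed in any comparison, and the smallest p for CEP averaged over 4SU was that of KIAA0391, the nuclease subunit of mitochondrial RNase P (0.19, SE 0.12, adjusted p = 0.319, edgeR). Of 16 tRNA modification genes 0 passed, with QTRT1, a subunit of the queuine transferase, having the smallest p (-0.26, SE 0.086, adjusted p = 0.0928). The synthetases for the 4 listed tRNAs did not pass either, with averaged changes of -0.07 for LARS2 (leucine), 0.08 for NARS2 (asparagine), -0.11 for CARS2 (cysteine) and -0.06 for YARS2 (tyrosine). CARS2 was at 43.5 ± 1.71 CPM in DMSO and 41.5 ± 1.88 with CEP while its tRNA fell to 52.9%.

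Of 24 genes for rRNA modification and assembly of the mitochondrial ribosome, 1 was called. DDX28, a helicase of large subunit assembly, was at 39.7 ± 2.15 CPM in the DMSO group, 28.8 ± 2.69 with the probe, 33.6 ± 1.34 with 4SU and 26.2 ± 2.80 in CEP+4SU. Its change was -0.60 for CEP+4SU against DMSO (SE 0.10, adjusted p = 0.0153, edgeR) and -0.41 for CEP averaged over 4SU (SE 0.074, adjusted p = 0.0171).

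The genes with the most similar pattern over the 12 libraries were found by Pearson's r of log2 CPM among 14894 genes with a mean of at least 1 CPM. The points share treatment and library, so the r values are descriptions. MT-TC and MT-TN correlated with each other at 0.90, and outside the 6 with CLK2 (0.94), ADAMTS10 (0.92) and TUBB4B (0.91), and with MAGEF1 (0.94), CAMK2B (0.90) and AL162458.1 (0.89), respectively. MT-TY was most like MT-ND3 (0.94), HOPX (0.93) and ADORA1 (0.91), and MT-TL1 most like ZNF467 (0.91), PLXNB1 (0.89) and ASIC1 (0.87). MT-RNR2 was most like MIR17HG (0.94), TATDN2P2 (0.92) and MT-ND5 (0.87). MT-RNR1 was most like HIST1H1E (0.88), a linker histone gene whose mRNA lacks a poly(A) tail, the nuclear RNA MALAT1 (0.85) and SNHG17 (0.82), and its r with MT-RNR2 was 0.45.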

How the data were processed

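The counts were made by the authors, who removed adapter, poly-N and low-quality reads, aligned the rest to GRCh38 with HISAT2 2.0.5 and counted reads per gene with featureCounts 1.5.0-p3. They are deposited as whole numbers. Whether counting used the strand is not given in the sources used here, so reads of a tRNA and of transcripts antisense to it cannot be told apart. The FPKM values were deposited by the authors on a linear scale, per gene length and adjusted library size, and served only for levels and figures and for limma. The authors' table of group means was not used.

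Genes were filtered with filterByExpr (minimum count 10, total 15) and TMM-normalised, and the 4 groups of 3 libraries were fitted with glmQLFit in edgeR 4.0.16 (R 4.3.3). Standard errors are scaled by the quasi-likelihood dispersion, CPM uses TMM library sizes, and the log2 CPM for r has a prior count of 2. No libraries agreed within sampling noise. The members and lists were chosen with earlier results of these data known. By rule the text names the 6 genes, their neighbours, list genes that passed (or had the smallest p), the 4 synthetases and the 3 most similar genes each. The 5 other tested tRNAs fall outside this rule and were named after their values were seen. Alternatives were DESeq2 1.42.0, limma 3.58.1 with trend on log2 (FPKM + 1 or + 0.1), other scalings, filters and thresholds, a robust fit, a replicate block, only the compared groups, and leaving libraries out.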

Additional observations from a re-analysis of the deposited data

How the results depend on the processing

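No result changed direction with a call on either side under the alternatives run. Moves of over 1.5 times in the number of the 6 genes called come first, and their cause was not tested. For CEP against DMSO (2), it was 5 without a low-count filter, 1 with at least 10 counts in every library, 0 with limma on log2 FPKM with either pseudocount, 1 with only the groups compared, and 0 to 3 with 1 library left out. For CEP+4SU against DMSO (3), it was 0 relative to mitochondrial mRNA, 5 without the filter, 5 without both libraries of few detected genes, and 1 to 3 with 1 library left out. For CEP+4SU against 4SU (1), it was 2 with DESeq2, 3 without the filter, 0 with limma at either pseudocount, 2 without both libraries, and 0 to 2 with 1 library left out. For CEP averaged over 4SU (3), it was 6 without the filter, 1 with limma at either pseudocount, 5 at an adjusted p of 0.1, 5 without both libraries, and 2 to 4 with 1 library left out. Smaller moves were 3 with DESeq2 for CEP against DMSO (MT-TN gained), 2 with limma for CEP+4SU against DMSO (MT-TN lost), and 4 with the robust fit for CEP averaged over 4SU (MT-TL1 gained, adjusted p = 0.0434). Without the filter 1 was called for 4SU averaged over CEP and 1 for the interaction, MT-RNR1 in both, where 311 and 15 of 35634 genes passed. Calls over all genes moved too, here in the order CEP against DMSO, CEP+4SU against DMSO, CEP+4SU against 4SU and CEP averaged over 4SU. The main fit called 10, 290, 8 and 49 of 17729. The fit without the filter called 662, 1234, 65 and 1448 of 35634, and DESeq2 197, 1141, 15 and 1474. Limma on log2 (FPKM + 1) called 1, 21, 0 and 19. Without both libraries of few detected genes it was 15, 156, 13 and 61 of 18086. For the last comparison, the threshold of 0.1 called 1597 and the robust fit 145. DESeq2 gave MT-TL1 no adjusted p for CEP+4SU against DMSO. Scaling to mitochondrial mRNA moved the median of all genes to 0.36 for CEP against DMSO and 0.22 for CEP averaged over 4SU. It called 3378 and 2546 of 17729 genes in these comparisons.

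Whether the replicate numbers pair libraries of different groups could not be decided. Deviations from the group mean correlated above 0.1 in 1 of 18 same-numbered pairs (r -0.05 to 0.14, median 0.01). Of 36 pairs with unlike numbers, 0 did (-0.16 to 0.06, median -0.01). Such small r values neither show a shared day or culture nor exclude it, and the main fit used no block. With the replicate number as a block, 3, 4, 1 and 4 of the 6 were called for CEP against DMSO, CEP+4SU against DMSO, CEP+4SU against 4SU and CEP averaged over 4SU. Over all 17729 genes that fit called 780, 1667, 16 and 2269 in these comparisons, against 10, 290, 8 and 49 in the main fit. The larger numbers among the 6 thus came with larger numbers over all genes. MT-TY and MT-TL1 had 2 to 104 counts per library, and MT-RNR1 had a biological coefficient of variation of 31.8%. Whether depth or spread set their missing calls was not tested.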
